A study of Oryza sativa with 11 samples.

Results

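Messenger RNA was measured in whole anthers of wild-type (WT) rice, Oryza sativa, at anther stages 10 and 12, to describe how gene expression differs between those stages during normal pollen maturation. The comparison rests on 6 of the 11 libraries of the series, chosen by their labels: 3 of WT at stage 10 and 3 of WT at stage 12. Both groups came from untreated, field-grown plants, and the labels call the replicates biological but give no cultivar and no plant or pool of origin. The other 5 libraries are of ostie1-1, a mutant of the transcriptional repressor OsTIE1 (3 at stage 10 and 2 at stage 12), and enter the model for the estimate of the spread. All 55986 loci of the table were taken, and 21279 were tested, those that reached an FPKM of 1 in 2 or more libraries. FPKM counts fragments for each kilobase of a transcript, set against the size of the library.

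A rice anther holds the developing pollen inside a wall whose innermost layer, the tapetum, feeds the microspores and supplies the outer pollen wall. At stage 10 the microspores are vacuolated and the tapetum is degrading. By stage 12 the pollen has stored starch and nears maturity, and the anther is about to open. Ripe pollen is known to store transcripts for the later growth of the pollen tube, such as those for wall-loosening proteins and regulators of actin.

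Libraries are named by stage and replicate number. The stage 10 libraries did not group together. On the log2 scale the correlation across genes of stage 10 replicate 3 with stage 10 replicates 1 and 2 was 0.794 and 0.795. Replicates 1 and 2 correlated with each other at 0.983 and with the WT stage 12 libraries at 0.866 to 0.942. Replicate 3 correlated with the ostie1-1 stage 10 libraries at 0.881 to 0.903. Its 10 most abundant loci held 26.0% of the summed FPKM, against 23.6% to 24.3% in the ostie1-1 stage 10 libraries and 7.50% to 10.7% in the other WT libraries. On the first principal component of all 11 libraries replicate 3 scored 108, the ostie1-1 stage 10 libraries 64.8 to 110.0, stage 10 replicates 1 and 2 -44.2 and -25.3, and the WT stage 12 libraries -104.6 to -71.4. Relative depths, read from the steps between low FPKM values, were 0.915 to 1.16 of stage 10 replicate 1 in the WT libraries, and the absolute depth is unknown. Replicate 3 was kept as labelled, and results are given with and without it.

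Many more genes were called higher than lower at stage 12. With all libraries 449 genes rose and 109 fell (limma on log2(FPKM + 1), Benjamini-Hochberg adjusted p below 0.05), which is 2.11% and 0.512% of the genes tested, and 2.62% together. An unadjusted p below 0.05 was reached by 2995 genes. Without stage 10 replicate 3, 408 of 21103 genes rose (1.93%) and 110 fell (0.521%), together 2.45%. Of the 558 genes that passed with all libraries, 408 passed in the same direction without replicate 3, 149 were lost and none passed in the opposite direction. Of the genes that passed, 346 of the rises and 63 of the falls were at least 2 on the log2 scale. Small changes seldom pass with so few libraries, so this does not describe genes in general. The median absolute log2 fold change was 2.54 among the genes that passed with all libraries. It was 0.294 over all genes tested in the fit without stage 10 replicate 3. The genes that rose held 0.456% to 1.35% of the summed FPKM in the stage 10 libraries and 7.32% to 14.0% in those of stage 12. The genes that fell held 1.73% to 3.25% at stage 10 and 0.110% to 0.441% at stage 12. Both sets were picked by their change in these same libraries, so the direction of these shifts follows from the choice. The number of calls depended on single libraries. Without stage 12 replicate 3 only 6 genes rose and 3 fell, and without stage 10 replicate 2 30 rose and 8 fell. Without stage 12 replicate 1 219 rose and 72 fell, and without stage 12 replicate 2 247 rose and 25 fell. With replicate 3 as the sole stage 10 library, assumed to vary like the other groups, 2596 genes rose and 3735 fell. This last setting was chosen after the data were seen.

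**Figure D1:**
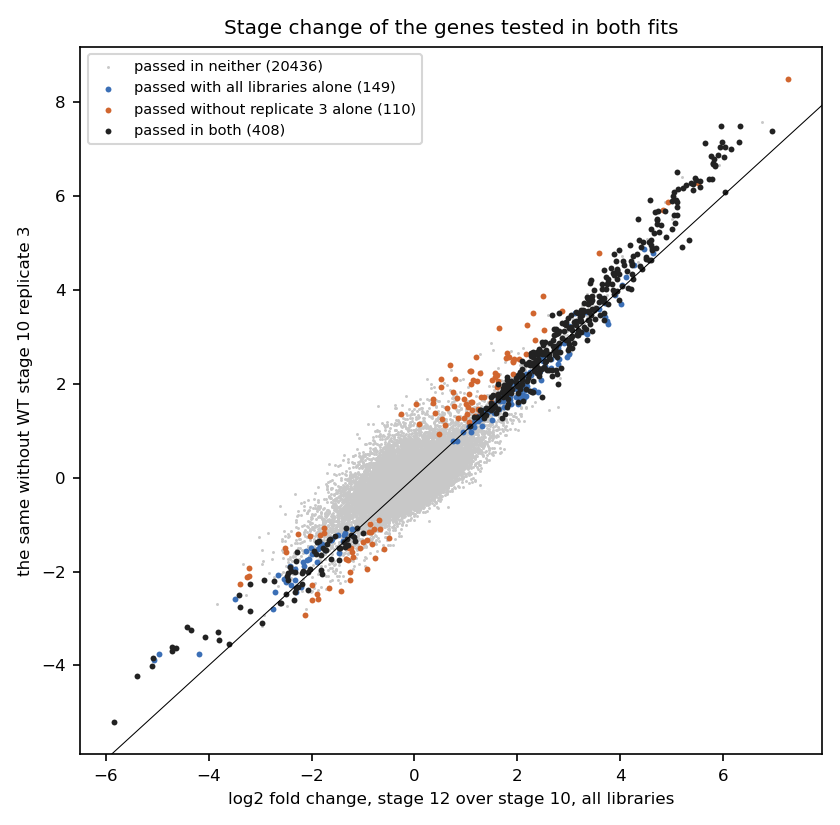
Log2 fold change of stage 12 over stage 10 for each gene tested in both fits, with all libraries (x axis) and without stage 10 replicate 3 (y axis). Points are coloured by the fit in which the gene passed, and the line marks equality. The 408 genes that passed in both fits lie near the line on both sides of 0.

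Gene names were recalled from general knowledge, since the table holds locus IDs alone. A name was used only where the RefSeq table at hand has a gene of that name at the matching place of the chromosome, which cannot tell close neighbours apart and is not an annotation of the ID. This gave 450 loci in 28 lists, of which 279 were tested, 171 were not, and 69 were listed at 0 in all 6 WT libraries. Loci with several transcript models seldom had values: 18 of 141 such named loci were tested, against 261 of 309 with 1 model, so a low or 0 value of the former is not read as absence. With all libraries 11 of the 279 tested genes rose (3.94%, beside 2.11% of all genes) and 4 fell (1.43%, beside 0.512%), and without stage 10 replicate 3 13 rose and 4 fell. The lists were chosen with earlier results of these data known, so these shares are a description. Calls are those of limma, and where no member of a list passed, the number at an unadjusted p below 0.05 is given as well. Such numbers are to be read beside those over all genes. These were 2995 of 21279 with all libraries and 3013 of 21103 without replicate 3. The median change of all genes tested was -0.04 on the log2 scale (-0.02 without replicate 3). It was 0.14 with unscaled FPKM and 0.12 on a TPM scale, and the changes below are those after median-of-ratios scaling.

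**Figure D2:**
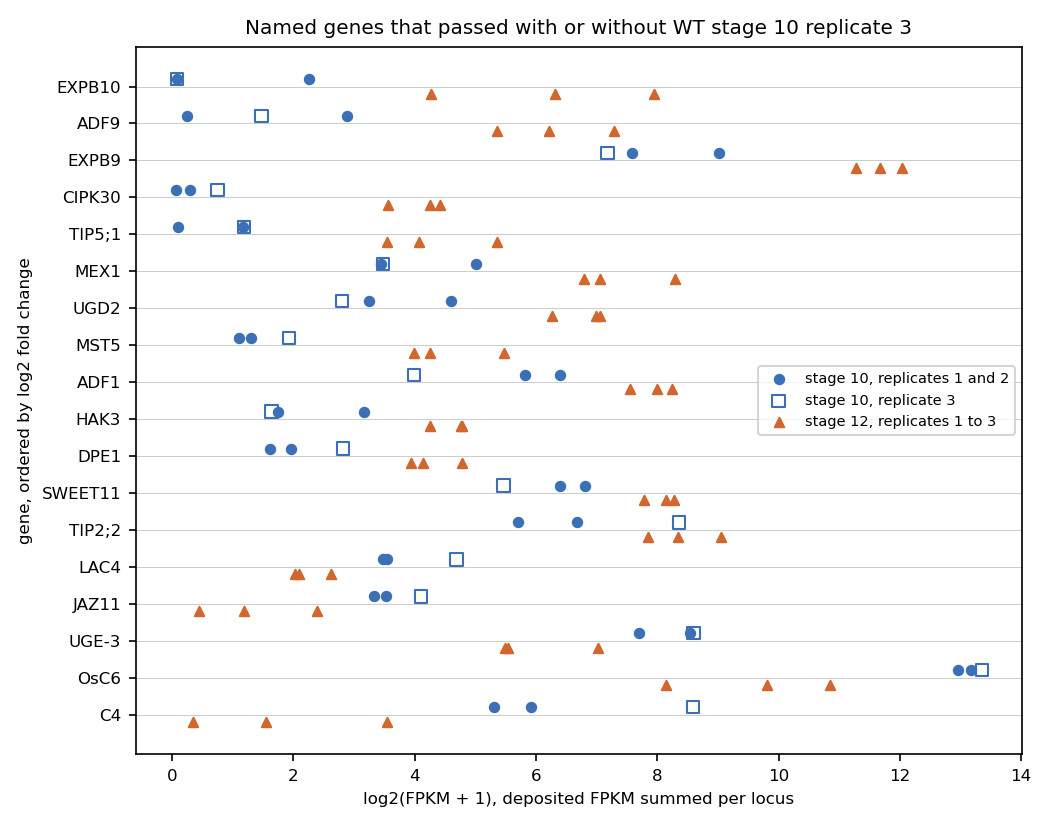
Level in each WT library of the 18 named genes that passed with or without stage 10 replicate 3, as log2(FPKM + 1). Circles and the open square are stage 10 libraries, the square being replicate 3, and triangles are stage 12 libraries. In 17 of them the stages do not overlap, where 13.1% of all genes tested were apart as higher and 6.75% as lower. The genes were picked by passing in these same libraries, so the lack of overlap largely follows from the choice. In TIP2;2 replicate 3 lies among the stage 12 libraries.

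Transcripts of tapetum products were the strongest named falls. OsC6 (LOC_Os11g37280), for a lipid transfer protein that the tapetum secretes for the pollen wall, measured 7964, 9272 and 10460 FPKM in the stage 10 libraries and 1842, 893 and 281 FPKM in those of stage 12. Every stage 12 library lay below every stage 10 library, and stage 12 replicate 3 was lowest. The log2 fold change was -3.79 (SE 0.64, adjusted p = 0.0173), and -3.46 without stage 10 replicate 3 (SE 0.65, adjusted p = 0.0254). C4 (LOC_Os08g43290), for another lipid transfer protein of the anther, measured 38.6, 59.8 and 384 FPKM at stage 10 and 10.7, 1.92 and 0.270 FPKM at stage 12. Replicate 3 held the highest value, and the groups did not overlap. C4 fell by 4.96 (SE 1.05, adjusted p = 0.0336), but without replicate 3 its log2 fold change of -3.76 did not pass (adjusted p = 0.0545). RTS, a gene of the tapetum required for male fertility, was the most abundant of the list. It measured 15674, 22233 and 21701 FPKM at stage 10 and 15602, 9549 and 2041 FPKM at stage 12, without passing (log2 fold change -1.77, adjusted p = 0.368). In whole anthers, fewer cells of a type and less RNA per cell cannot be told apart.

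Of the 5 tested genes for tapetum products and pollen wall, 2 fell and 3 did not pass, with a median of -1.77 (-1.46 without replicate 3, with 1 falling). The summed level of the 7 members was 23686 to 32555 FPKM at stage 10 and 2331 to 17463 FPKM at stage 12, nearly all of it RTS and OsC6. INP1 and CYP703A3 had log2 fold changes of -0.525 and -0.224, with overlap between the stages. None of the 10 tested tapetum regulators and proteases passed, with or without replicate 3 (5 and 3 at an unadjusted p below 0.05), and their median was -0.90 (-0.52 without it). In 4 of them every stage 12 library lay below every stage 10 library, where 6.75% of all genes tested did so. EAT1, a bHLH factor that promotes tapetal cell death, measured 94.7, 112 and 139 FPKM at stage 10 and 61.7, 49.2 and 17.4 FPKM at stage 12 (log2 fold change -1.79, SE 0.57, adjusted p = 0.150). TDR, a bHLH factor of tapetum degradation, measured 122, 134 and 471 FPKM at stage 10 and 92.2, 117 and 27.0 FPKM at stage 12 (adjusted p = 0.233). UDT1, needed for early tapetum differentiation, went from 23.9, 34.3 and 50.2 FPKM to 22.5, 18.9 and 13.3 FPKM without passing (adjusted p = 0.205). The groups were apart in all 3 of these genes, by a small gap in TDR and UDT1.

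Sugar supply differed between individual transporters. SWEET11 (LOC_Os08g42350), a sucrose exporter, measured 112, 82.9 and 43.2 FPKM at stage 10 and 218, 281 and 310 FPKM at stage 12. It rose by 1.62 (SE 0.31, adjusted p = 0.0253), and by 1.47 without replicate 3 (adjusted p = 0.0386). MST5 (LOC_Os08g08070), a monosaccharide transporter gene, measured 1.46, 1.16 and 2.80 FPKM at stage 10 and 18.1, 15.0 and 43.3 FPKM at stage 12. It rose by 2.88 (SE 0.58, adjusted p = 0.0284), and by 3.30 without replicate 3 (adjusted p = 0.0210). In both genes all stage 12 libraries were above all of stage 10. SWEET6A was apart in the same direction (46.8, 18.9 and 24.4 against 186, 215 and 372 FPKM) but did not pass (log2 fold change 2.87, SE 0.68, adjusted p = 0.0524). INV4, the anther cell-wall invertase that splits sucrose for the pollen, was the most abundant member. It measured 937, 514 and 124 FPKM at stage 10 and 623, 1447 and 1028 FPKM at stage 12, with overlap, and is named here after its values were seen. Of 16 tested genes of sugar transport and cleavage, 2 rose and 14 did not pass (the same counts without replicate 3), and the median was 0.11 (0.33 without it). Sucrose synthase genes SUS1 to SUS4 each have several models and were not tested.

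Among starch genes 1 passed with all libraries. MEX1 (LOC_Os04g51330), whose Arabidopsis counterpart exports maltose from the plastid, measured 31.4, 9.84 and 10.2 FPKM at stage 10 and 133, 110 and 313 FPKM at stage 12. It rose by 3.18 (SE 0.49, adjusted p = 0.0133), and by 3.15 without replicate 3 (adjusted p = 0.0199). DPE1 (LOC_Os07g43390), for a disproportionating enzyme that transfers glucan units, measured 2.88, 2.08 and 6.05 FPKM at stage 10 and 16.5, 14.3 and 26.6 FPKM at stage 12. The groups were apart, yet it did not pass with all libraries (1.91, SE 0.51, adjusted p = 0.0833) and did without replicate 3 (2.46, SE 0.42, adjusted p = 0.0194). DPE2, for the cytosolic enzyme that acts on maltose, went from 74.8, 54.0 and 16.9 FPKM to 126, 119 and 207 FPKM without passing (1.58, adjusted p = 0.127). Of 14 tested starch genes 1 rose (2 without replicate 3) and 13 did not pass, with a median of 0.37 (0.29). GBSS1, for the granule-bound starch synthase that makes amylose, was apart between the stages at a low level, at 0.0289, 0.128 and 0.0250 FPKM against 1.92, 0.746 and 0.929 FPKM (0.90, adjusted p = 0.409). The starch synthase gene SSII-3 lay the other way, at 77.6, 78.1 and 85.0 FPKM against 70.1, 50.7 and 41.8 FPKM (-0.81, adjusted p = 0.245).

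Beta-expansins, which loosen grass cell walls, included the most abundant named gene among those that rose. EXPB9 (LOC_Os10g40090) measured 519, 190 and 144 FPKM at stage 10 and 3246, 2487 and 4207 FPKM at stage 12. It rose by 3.51 (SE 0.62, adjusted p = 0.0197), and by 3.37 without replicate 3 (adjusted p = 0.0350). EXPB10 (LOC_Os03g01650) measured 3.77, 0.0649 and 0.0571 FPKM at stage 10 and 78.7, 18.2 and 245 FPKM at stage 12. It rose by 5.20 (SE 0.88, adjusted p = 0.0175), and by 4.91 without replicate 3 (adjusted p = 0.0324). These were 2 of 10 tested beta-expansins, and the other 8 did not pass (median 0.29, and 0.61 without replicate 3). EXPB3 lay the other way, at 25.9, 30.4 and 69.2 FPKM against 22.1, 10.8 and 9.26 FPKM (-1.68, adjusted p = 0.172). Expansins are a family of similar sequences and how the counting treated shared reads is not stated, so the split between members is uncertain.

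None of 9 tested alpha-expansins passed (4 at an unadjusted p below 0.05, and 2 without replicate 3), with a median of -0.65 (-0.12 without replicate 3). EXPA32 had the largest log2 fold change of these 9, with or without replicate 3. It measured 0.223, 0.511 and 2.90 FPKM at stage 10 and 40.2, 21.1 and 64.8 FPKM at stage 12 (log2 fold change 4.03, SE 1.05, adjusted p = 0.0764, and 0.0609 without replicate 3). EXPA2, EXPA4 and EXPA7 were lower in every stage 12 library than in any of stage 10, as were 6.75% of all genes tested. Their log2 fold changes were -2.42, -1.61 and -1.52, and -1.74, -0.94 and -0.63 without replicate 3. They passed in neither fit, and replicate 3 was the highest library in each of them.

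**Figure D3:**
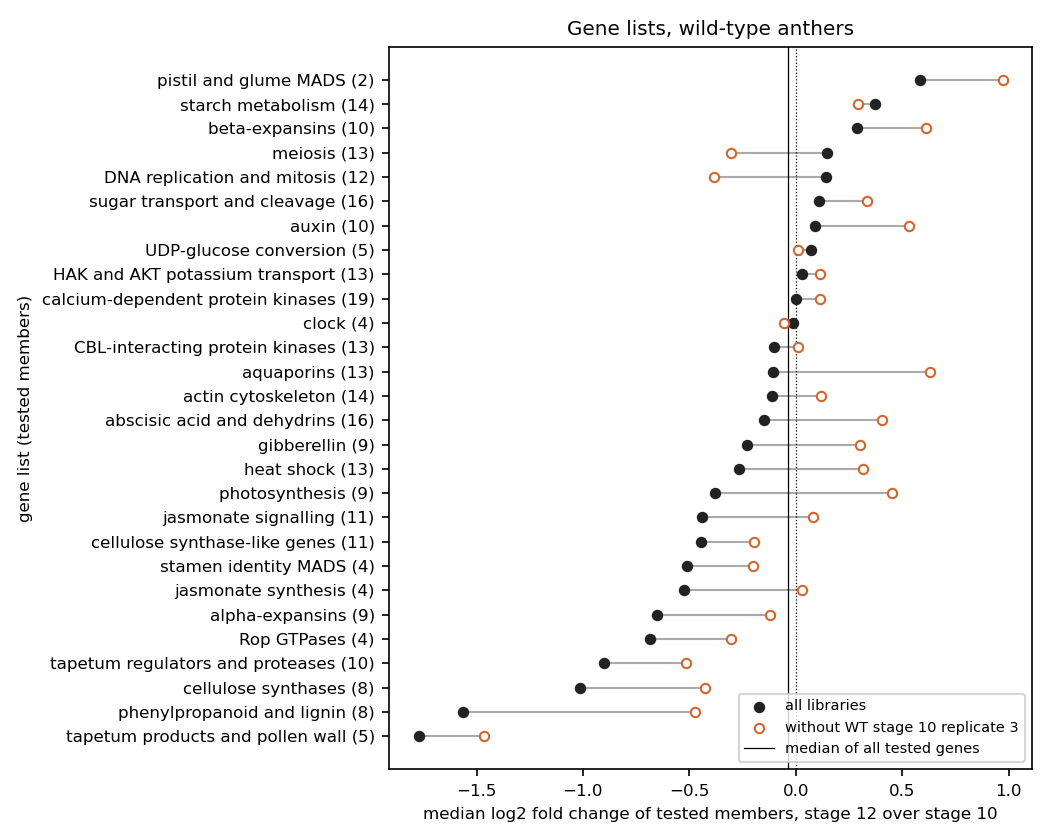
Median log2 fold change of stage 12 over stage 10 in each of the 28 gene lists, with the number of tested members in brackets. Filled points use all libraries and open points leave out stage 10 replicate 3. Tapetum products, with 5 tested members, had the lowest median in both fits. With quantile normalization their median was -1.26, against -1.49 for phenylpropanoid and lignin genes. Without replicate 3, 11 of the 28 medians changed sign, among them those of aquaporins, photosynthesis, heat shock, meiosis and replication genes.

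Of the enzymes that convert UDP-glucose for wall polysaccharides, one gene rose and another fell. UGD2 (LOC_Os03g40720), for a UDP-glucose dehydrogenase that opens the route to wall uronic acids and pentoses, measured 23.1, 8.44 and 5.99 FPKM at stage 10 and 75.8, 127 and 131 FPKM at stage 12. It rose by 3.01 (SE 0.48, adjusted p = 0.0145), and by 2.85 without replicate 3 (adjusted p = 0.0237). UGE-3 (LOC_Os09g35800), for an epimerase that makes UDP-galactose, measured 206, 373 and 386 FPKM at stage 10 and 130, 45.5 and 44.1 FPKM at stage 12. It fell by 2.48 (SE 0.48, adjusted p = 0.0247), and by 2.09 without replicate 3 (adjusted p = 0.0444). The stages were apart in both genes, and the other 3 of 5 tested members did not pass. Their relatives UGD4, UGE-2 and UGE-4 had log2 fold changes of 0.07, 0.03 and 0.94. UGE-4 measured 38.3, 30.9 and 7.98 FPKM at stage 10 and 46.1, 38.0 and 66.8 FPKM at stage 12, with overlap.

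Most genes for cellulose and lignin were higher in replicate 3 than in the other stage 10 libraries. None of 8 tested cellulose synthases passed, with or without it (1 without it and 4 with it at an unadjusted p below 0.05), and their median was -1.01 (-0.43 without it). CESA4, CESA7 and CESA9, which make secondary wall cellulose, measured 106, 68.5 and 110 FPKM in replicate 3, 4.79 to 13.5 FPKM in the other stage 10 libraries and 1.38 to 8.79 FPKM at stage 12. CESA1, of primary walls, measured 32.9, 32.6 and 35.9 FPKM at stage 10 and 31.0, 27.0 and 35.1 FPKM at stage 12. Replicate 3 exceeded both other stage 10 libraries in 7 of 8 tested cellulose synthases and 8 of 8 tested phenylpropanoid and lignin genes, against 32.5% of all genes tested. Of 8 tested phenylpropanoid and lignin genes none passed with all libraries (3 at an unadjusted p below 0.05, median -1.56), and 1 fell without replicate 3 (median -0.47). That gene was LAC4 (LOC_Os01g62490), for a laccase of the family that polymerises lignin, at 10.2, 10.7 and 24.8 FPKM against 3.28, 5.18 and 3.08 FPKM (-1.23, SE 0.26, adjusted p = 0.0398). With all libraries it had -1.84 (SE 0.46, adjusted p = 0.0623). PAL, for the entry enzyme of the pathway, measured 380, 480 and 5440 FPKM at stage 10 and 341, 297 and 137 FPKM at stage 12 (adjusted p = 0.353). None of 11 tested cellulose synthase-like genes passed (2 at an unadjusted p below 0.05, median -0.44), and CSLF9 came nearest at -1.87 (SE 0.47, adjusted p = 0.0675).

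Regulators of the actin cytoskeleton, along which a pollen tube carries its vesicles, held 2 genes that rose, both for actin-depolymerizing factors. ADF1 (LOC_Os02g44470) measured 83.0, 55.3 and 14.9 FPKM at stage 10 and 187, 255 and 301 FPKM at stage 12. It rose by 2.31 (SE 0.45, adjusted p = 0.0255), and by 1.83 without replicate 3 (adjusted p = 0.0329). ADF9 (LOC_Os07g30090) measured 6.37, 0.184 and 1.78 FPKM at stage 10 and 73.6, 39.9 and 155 FPKM at stage 12. It rose by 4.51 (SE 0.87, adjusted p = 0.0252), and by 4.65 without replicate 3 (adjusted p = 0.0416). The other 12 of 14 tested members did not pass. The list median was -0.11 (0.12 without replicate 3, and 0.07 with unscaled FPKM and 0.05 on a TPM scale). ADF11 lay the other way, at 4.97, 4.12 and 9.11 FPKM against 3.99, 2.13 and 1.85 FPKM (-1.11, adjusted p = 0.277), and the actin gene ACT3 had -0.68 (adjusted p = 0.344).

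Of 4 tested Rop GTPases, switches of polar growth, none passed (2 at an unadjusted p below 0.05, median -0.69, and -0.30 without replicate 3). RAC6 was the most abundant, at 613, 402 and 100.1 FPKM against 555, 652 and 945 FPKM, with overlap between the stages (1.03, adjusted p = 0.349).

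Calcium signalling genes showed low and apart values at stage 10 in several members. CIPK30 (LOC_Os01g55440), for a kinase that calcium sensors of the CBL family activate, measured 0.233, 0.0457 and 0.684 FPKM at stage 10 and 20.3, 10.8 and 18.1 FPKM at stage 12. It rose by 3.44 (SE 0.73, adjusted p = 0.0339), and by 3.74 without replicate 3 (adjusted p = 0.0428), as the 1 of 13 tested CBL-interacting kinases that passed. None of 19 tested calcium-dependent protein kinases passed, with or without replicate 3 (5 at an unadjusted p below 0.05 in each fit), and their median was 0.00 (0.11). In 7 of these 19 every stage 12 library lay above every stage 10 library, where 13.1% of all genes tested did so. CPK2 measured 0, 0.268 and 0.270 FPKM at stage 10 and 25.5, 12.8 and 21.9 FPKM at stage 12 (3.87, SE 0.96, adjusted p = 0.0608). CPK29 went from 14.6, 14.5 and 2.88 FPKM to 51.1, 39.8 and 49.7 FPKM (2.08, adjusted p = 0.0977), and CPK22 from 1.00, 0.875 and 0.257 FPKM to 10.4, 5.22 and 13.8 FPKM (2.43, adjusted p = 0.0860).

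Transport of potassium and water held a few strong changes. HAK3 (LOC_Os01g27170), for a potassium transporter of the HAK family, measured 7.99, 2.35 and 2.12 FPKM at stage 10 and 18.2, 26.5 and 26.2 FPKM at stage 12. It rose by 2.21 (SE 0.44, adjusted p = 0.0284), and by 2.12 without replicate 3 (adjusted p = 0.0479), as the 1 of 13 tested HAK and AKT genes that passed (median 0.03). HAK12 lay the other way, at 9.40, 8.56 and 7.82 FPKM against 4.19, 4.93 and 3.60 FPKM (-1.06, adjusted p = 0.0860). TIP5;1 (LOC_Os04g46490), for a vacuolar water channel whose Arabidopsis counterpart works in pollen, measured 1.26, 0.0688 and 1.27 FPKM at stage 10 and 15.8, 10.6 and 40.0 FPKM at stage 12. It rose by 3.25 (SE 0.57, adjusted p = 0.0196), and by 3.58 without replicate 3 (adjusted p = 0.0194). TIP2;2 (LOC_Os06g22960), for another vacuolar channel, measured 101, 51.3 and 327 FPKM at stage 10 and 230, 325 and 530 FPKM at stage 12. Replicate 3 fell among the stage 12 values, and the gene rose only in the fit without that library (2.23, SE 0.43, adjusted p = 0.0273), against 1.28 with it (adjusted p = 0.456). Of 13 tested aquaporins 1 rose (2 without replicate 3). Their median was -0.11, and 0.63 without replicate 3, with 0.03 for unscaled FPKM and 0.07 on a TPM scale. PIP2;7, for a water channel of the plasma membrane, lay the other way, at 386, 495 and 1717 FPKM against 292, 261 and 113 FPKM. It was lower in every stage 12 library without passing (-1.97, adjusted p = 0.178). PIP1;2 and TIP1;1, named after their values were seen, measured 1754 and 3164 FPKM in replicate 3 and 112 to 282 FPKM in the other WT libraries.

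Of hormone genes a single one passed. JAZ11 (LOC_Os03g08320), for a JAZ protein that represses jasmonate responses, measured 9.01, 10.5 and 16.2 FPKM at stage 10 and 4.22, 1.27 and 0.367 FPKM at stage 12. It fell by 2.46 (SE 0.48, adjusted p = 0.0269), and by 2.04 without replicate 3 (adjusted p = 0.0416), as 1 of 11 tested jasmonate signalling genes. JAZ8 and JAZ10 were lower in every stage 12 library than in any of stage 10 (-1.65 and -1.80, adjusted p = 0.0877 and 0.132). JAZ9 was higher in every stage 12 library, at 582, 464 and 209 FPKM against 816, 906 and 1104 FPKM (1.05, adjusted p = 0.202). None of 4 tested jasmonate synthesis genes passed (0 at an unadjusted p below 0.05), and AOS1, for allene oxide synthase, measured 10.8, 10.2 and 49.8 FPKM at stage 10 and 12.5, 11.9 and 13.1 FPKM at stage 12. Of the jasmonate synthesis list 7 of 11 members were not tested.

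None of 9 gibberellin, 10 auxin and 16 abscisic acid and dehydrin genes tested passed, with or without replicate 3. At an unadjusted p below 0.05 there were 2, 3 and 2 with all libraries and 2, 6 and 4 without it. KAO, for an enzyme of gibberellin synthesis, was apart between the stages, at 285, 133 and 70.3 FPKM against 413, 366 and 600 FPKM (1.46, SE 0.43, adjusted p = 0.117). EUI, for an enzyme that inactivates gibberellin, lay the other way, at 30.3, 32.3 and 131 FPKM against 14.4, 22.7 and 16.8 FPKM (-1.69, adjusted p = 0.231). PIN1C, of auxin export, went from 1.28, 1.26 and 1.28 FPKM to 2.67, 9.07 and 6.86 FPKM (1.36, adjusted p = 0.138). The dehydrin gene Dhn1 measured 36.2, 20.6 and 812 FPKM at stage 10 and 239, 66.8 and 107 FPKM at stage 12.

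In deposited FPKM most cell division genes were lower in stage 10 replicate 3 than in the other stage 10 libraries, as were most of all genes tested. The scaling factor was 0.726 for replicate 3 and 1.19 and 1.16 for replicates 1 and 2, so scaling raised replicate 3 relative to them. The medians below are after scaling, and the counts of libraries are before it. None of 13 tested meiosis genes and 12 tested genes of DNA replication and mitosis passed, with or without that library. At an unadjusted p below 0.05 there were 0 in each list with it, and 2 and 3 without it. Their medians were 0.15 and 0.14 with all libraries and -0.30 and -0.38 without replicate 3. Replicate 3 lay below both other stage 10 libraries in 12 of 13 tested meiosis genes and in 12 of 12 tested genes of replication and mitosis, where 58.8% of all genes tested did so. It was the lowest of all 6 WT libraries in 10 genes of each list, where 49.1% of all genes tested were. The Argonaute gene MEL1 was highest in replicate 3, at 57.5 FPKM against 9.15 to 25.6 FPKM in the other WT libraries. PAIR3 and ZEP1, of meiotic chromosome pairing, measured 0.416 and 0.239 FPKM in replicate 3, and 1.64 to 6.21 FPKM in the other WT libraries. MCM4, for a subunit of the replicative helicase, measured 17.0, 11.5 and 2.34 FPKM at stage 10 and 14.6, 14.9 and 14.5 FPKM at stage 12.

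**Figure D4:**
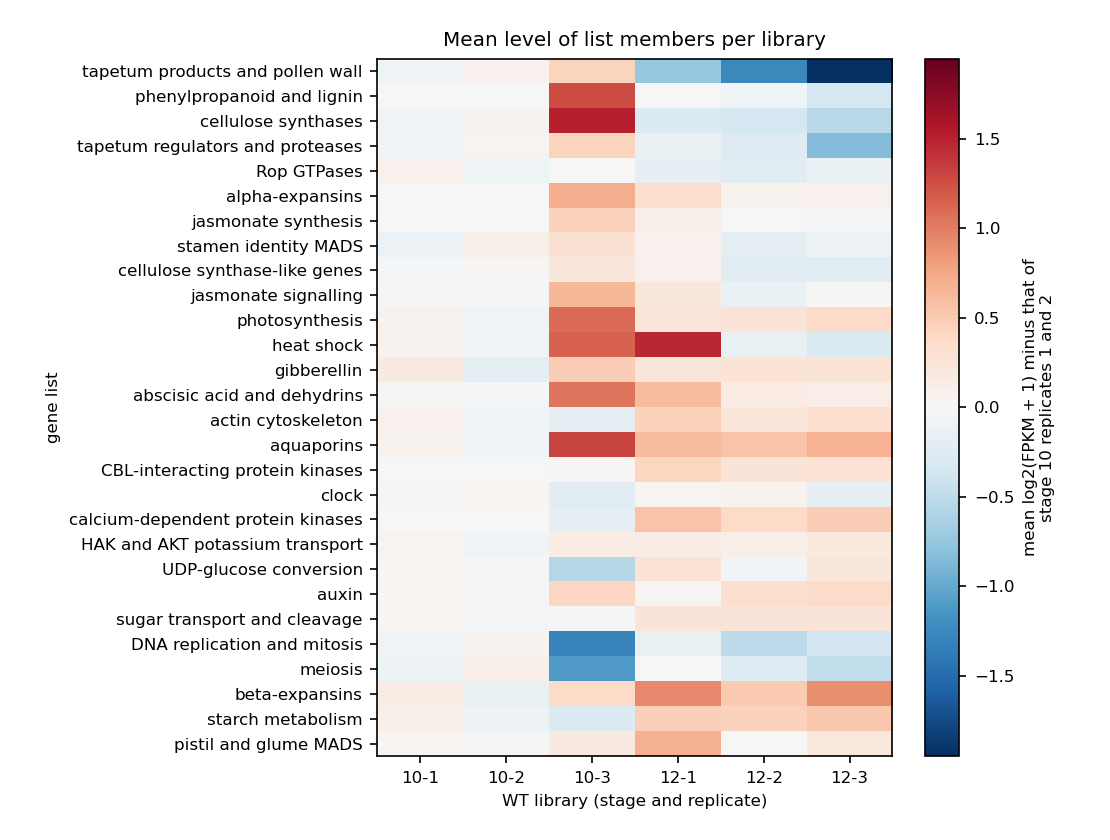
Mean log2(FPKM + 1) of all members of each gene list in each WT library, as the difference from the mean of stage 10 replicates 1 and 2, from deposited FPKM. Rows are lists, columns are libraries, red is higher and blue lower. Replicate 3 of stage 10 is the high column in cellulose synthases, aquaporins and photosynthesis and the low one in meiosis and replication, and it and stage 12 replicate 1 are high in heat shock genes (1.16 and 1.48).

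Markers of other tissues and of stress moved with single libraries. The photosynthesis list, a marker of green tissue, summed to 1391 FPKM in stage 10 replicate 3 and to 96.9 to 188 FPKM in the other WT libraries. CAB2R, which encodes a light-harvesting protein and made up most of that sum in replicate 3, measured 46.9, 40.2 and 849 FPKM at stage 10. At stage 12 it measured 57.1, 68.7 and 53.7 FPKM. Replicate 3 exceeded both other stage 10 libraries in 7 of 9 tested members, against 32.5% of all genes tested, and lay below both in 1. That member was CHLD, at 30.9, 24.9 and 6.93 FPKM at stage 10 and 27.7, 33.5 and 45.2 FPKM at stage 12. None of 9 tested photosynthesis genes passed (0 at an unadjusted p below 0.05 and median -0.38, with 4 and 0.45 without replicate 3), and 6 of 21 members, the Rubisco small subunit gene RBCS among them, were listed at 0 in all WT libraries. Pistil and glume MADS genes summed to 3.16 to 6.67 FPKM at stage 10 and to 30.0, 3.52 and 7.94 FPKM at stage 12. The ovule and carpel genes MADS21 and DL were listed at 0, and MADS6 measured 22.2 FPKM in stage 12 replicate 1. Heat shock genes were high in that library and in stage 10 replicate 3. The latter exceeded both other stage 10 libraries in 11 of 13 tested heat shock genes, against 32.5% of all genes tested. HSP17.4 measured 63.3 FPKM in stage 12 replicate 1, 2.68 and 3.22 FPKM in the other stage 12 libraries and 4.11, 0.944 and 11.2 FPKM at stage 10. HSP17.9B measured 32.1 FPKM in stage 10 replicate 3 and 0.503 to 2.12 FPKM in the other WT libraries, and HSP17.7 measured 43.8 FPKM there, 32.2 FPKM in stage 12 replicate 1 and 2.59 to 4.82 FPKM in the rest. None of 13 tested heat shock genes passed (0 at an unadjusted p below 0.05). The part of these markers in the stage changes was not tested. Of 7 stamen identity genes 4 were tested. MADS8 measured 383, 455 and 517 FPKM at stage 10 and 355, 233 and 328 FPKM at stage 12 (-0.80, adjusted p = 0.376), and MADS3 measured 61.2, 73.6 and 57.0 FPKM and then 37.8, 30.2 and 43.6 FPKM. MADS4 measured 0.696 to 1.67 FPKM, and MADS2 was listed at 0 in all 6 libraries. None of the 4 tested stamen identity genes, 2 tested pistil and glume genes and 4 tested clock genes passed (1, 0 and 1 at an unadjusted p below 0.05).

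Over all genes the largest falls and rises by the naming rule were in loci without a name. LOC_Os05g30580 measured 42.1, 57.2 and 125 FPKM at stage 10 and 0.890, 0 and 0 FPKM at stage 12 (-5.84, SE 0.51, adjusted p = 0.00219, and -5.20 without replicate 3, adjusted p = 0.000236). It was the 1 of 19 named genes that passed with all libraries which also passed whichever WT library was left out. LOC_Os04g39150 measured 141, 173 and 1140 FPKM at stage 10 and 17.3, 6.33 and 3.30 FPKM at stage 12 (-5.40, SE 1.00, adjusted p = 0.0219). LOC_Os10g16880 measured 0.518, 0.0820 and 1.24 FPKM at stage 10 and 177, 133 and 546 FPKM at stage 12 (6.96, SE 0.98, adjusted p = 0.0111). LOC_Os03g01640 measured 1.77, 0.0725 and 11.4 FPKM at stage 10 and 283, 249 and 520 FPKM at stage 12 (6.33, SE 1.34, adjusted p = 0.0336). The latter 3 also passed without stage 10 replicate 3 (adjusted p = 0.0274, 0.0138 and 0.0227 in that order). Of the 19 genes, 18 were lost without stage 10 replicate 2 and 18 without stage 12 replicate 3, OsC6 at an adjusted p = 0.0675 and 0.0981 and EXPB9 at 0.0922 and 0.119.

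The difference of the stage change between WT and ostie1-1 passed for 4 of 21279 genes (0.0188%, with 1153 at an unadjusted p below 0.05). Without stage 10 replicate 3 it passed for 15 of 21103 genes (0.0711%), with 3054 at an unadjusted p below 0.05. None of the 279 tested list members passed for this difference in either fit. SWEET11, which rose in WT, had a log2 fold change of -0.88 in ostie1-1, and the difference did not pass (adjusted p = 0.146).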

How the data were processed

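The authors deposited FPKM for each of 66338 MSU rice transcript models. Per the submitters' processing notes, HISAT2 2.2.0, featureCounts and IRGSP-1.0 were used. How FPKM were derived, which filters were applied and how shared reads were treated is not given in the sources used here, and no coordinates are in the table. Here FPKM were summed per locus, divided by median-of-ratios factors (0.726 to 1.31 over 11 libraries) and transformed as log2(FPKM + 1), on which scale folds of low genes are understated. The model had 1 mean per group (limma 3.58.1, R 4.3.3, trended variance), and the fit was tested on simulated data. Values in the text are deposited FPKM.

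Of 456 recalled pairs of name and locus, 450 were used: the locus was in the table and the name lay in RefSeq within 0.5 Mb of its interpolated place (median offset 0.014 Mb). That tolerance was set after seeing offsets, and 0 RefSeq rows hold the locus IDs. Some planned markers, such as profilins and the MADS genes of late pollen, had no name there and were left out. Members and lists were chosen with earlier results of these data known. Named genes are, per list, the 4 tested members lowest in adjusted p and 2 more chosen so without stage 10 replicate 3, plus the 2 largest rises and falls over all genes with no overlap and a mean FPKM of at least 5, and the same for up to 10 named loci each way.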

Additional observations from a re-analysis of the deposited data

How the results depend on the processing

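With all libraries 449 genes rose and 109 fell. With unscaled FPKM, TPM, quantile normalization, a pseudocount of 0.1, an FPKM filter of 5, the largest model per locus or loci with 1 model, both counts stayed within 1.5 times of these. They were 286 and 53 with a pseudocount of 5, 44 and 18 with no filter, 297 and 22 with the 6 WT libraries alone, and 1620 and 1154 with array weights. With 1 library left out, of either genotype, 6 to 495 genes rose and 3 to 159 fell, and the difference between the genotypes passed for 0 to 15 genes. Alternatives chosen after the data were seen gave 685 rises and 154 falls in the WT libraries alone without stage 10 replicate 3, and 2596 and 3735 without stage 10 replicates 1 and 2. With the replicate block in the WT libraries 141 rose and 4 fell. Whether the replicate numbers pair the samples is not known. Deviations of same-numbered WT libraries from their group means correlated at -0.20, 0.08 and -0.09. Stage 10 replicate 3 stands apart and enters the stage 10 mean, so these correlations cannot decide it. Of the 158 genes named, 24 had the opposite sign without stage 10 replicate 3, and 0 of these passed in either fit. Of reversals in which a call was made, petC turned direction with array weights (1.26, against -0.008 without weights). HAK11 (-1.96, against 0.08), COI1b (-1.95, against 0.012), GH3-8 (-2.66, against 0.52), Dhn1 (-3.44, against 0.24) and MADS58 (-1.55, against 0.12) did so without stage 10 replicates 1 and 2. The second values are those with all libraries, where none of these genes passed, so no direction was established there. The causes were not tested. Of the 19 that passed, 18 were lost with no filter, 12 with the replicate block and 11 in the WT libraries alone.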

Other observations

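With stage 10 replicate 3 as the sole stage 10 library, a setting chosen after the data were seen, the median log2 fold change was -3.33 for phenylpropanoid and lignin genes, -2.80 for photosynthesis genes and -1.92 for cellulose synthases. It was 1.04 for meiosis genes and 1.03 for genes of DNA replication and mitosis. With stage 10 replicates 1 and 2 alone the same medians were -0.47, 0.45, -0.43, -0.30 and -0.38. The tapetum product list had a median of -2.38 in the first case and -1.46 in the second.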
